A study of Mus musculus with 206 samples.

Results

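The prefrontal cortex (PFC) libraries of mice that received morphine around birth were compared between adult challenge with lipopolysaccharide (LPS) and with saline. The comparison took every H3K27ac ChIP library labelled PFC in the groups MOR-LPS (14 libraries, 6 female and 8 male) and MOR-SAL (9 libraries, 3 female and 6 male), which is 23 of the 43 PFC ChIP libraries, of 174 ChIP libraries and of 206 samples in all. All mice were wild type C57BL/6NTac. The dams of both MOR groups carried a minipump with morphine sulfate, and their pups were fostered to drug-naive dams and injected with morphine at 10 mg/kg 2 times a day from postnatal day 1 to 14. As adults they received LPS or saline, and tissue was taken 2 h later. The SAL-LPS (11 libraries) and SAL-SAL (9 libraries, 8 of them used) groups had saline in place of perinatal morphine and the same adult challenges. Each library came from about 10000 nuclei sorted for the neuronal protein NeuN, so the signal is a mean over all neuron types of the dissected tissue, and microglia and other non-neuronal cells were sorted away as far as the gate allowed.

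Acetylation of histone H3 at lysine 27 marks active promoters and enhancers, where acetyltransferases such as Ep300 and Crebbp place it and histone deacetylases remove it. LPS is a cell wall component of Gram-negative bacteria that is sensed by Toll-like receptor 4, mainly on immune cells, and drives NF-kB and interferon signalling. A systemic challenge also activates the hypothalamic-pituitary-adrenal axis, and neurons then meet the glucocorticoid hormone through the receptor encoded by Nr3c1, whose textbook targets include Fkbp5 and Sgk1. Opioid receptors couple to inhibitory G proteins, and opioid exposure is known to change cAMP signalling in neurons.

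The deposited lists hold peaks, not reads, so the sequencing depth behind each value is unknown. The number of peaks ranged from 35440 to 126100 in MOR-LPS (median 71302) and from 11306 to 128143 in MOR-SAL (median 71614). To set lists of unequal length side by side, each of the 18272 regions of the PFC consensus list was scored in each library by the strongest overlapping peak (its −log10 p) and ranked within that library from 0 (weakest) to 100 (strongest), with regions without a peak tied. A difference of 10 therefore means that the region passed 10% of the other regions on average. The labels tie neither a batch nor an animal pool to a library, and the p-values measure the spread between these libraries.

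A single library stood apart. MOR-SAL replicate 13-1 had 11306 peaks, and a peak lay in 0.438% of the consensus regions, against 58.1% to 99.1% in the other 22 libraries. Only 1.07% of its peaks fell inside a consensus region, against 31.8% to 61.8% in the others. None of 8 neuron markers had one of its 10000 strongest peaks within 1 kb of a start site, while 85.7% of the thalamic, 50% of the hypothalamic, 33.3% of the endothelial and 25% of the astrocyte markers did, as did 40% of the inhibitory, 33.3% of the hippocampal and 30.8% of the cortical excitatory neuron markers. In the same library 36 of 39 Hox genes, the homeobox genes that pattern the trunk and hindbrain and are silent in forebrain neurons, had such a peak, and in the other 22 libraries the count was 0. The Hox genes were looked at after these values were seen. In 13-1 the start sites of Avp, Oxt, Pomc, Agrp, Hcrt and Nr5a1 of the hypothalamic list had no peak of any strength. Nor had that of Prkcd of the thalamic list. The marker shares of 13-1 therefore do not name a tissue. Since nearly all regions are tied at a rank of 49.8 in 13-1, many counts and medians and the leading regions are given both ways. Values are from all 9 MOR-SAL libraries unless they are said to be without it. In the other 22 libraries the tied rank ran from 0.443 to 20.96, lower where more regions held a peak. A range end within that span can therefore be a tie without a peak.

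In the other 22 libraries 25% to 100% of the neuron markers had a strong start-site peak. MOR-LPS replicate 14-4 had a strong start-site peak at 70% of the oligodendrocyte markers (0% to 30% in the other 21 of these libraries), at 37.5% of the neuron markers and at none of the cortical excitatory neuron markers. Counting any peak at a start site, a MOR-LPS library held 1 to 10 of the 10 oligodendrocyte markers (median 2.5) and a MOR-SAL library other than 13-1 held 1 to 3 (median 2). All 6 endothelial markers were without a start-site peak in these 22 libraries, and at most 2 of 8 microglia markers had one.

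**Figure D1:**
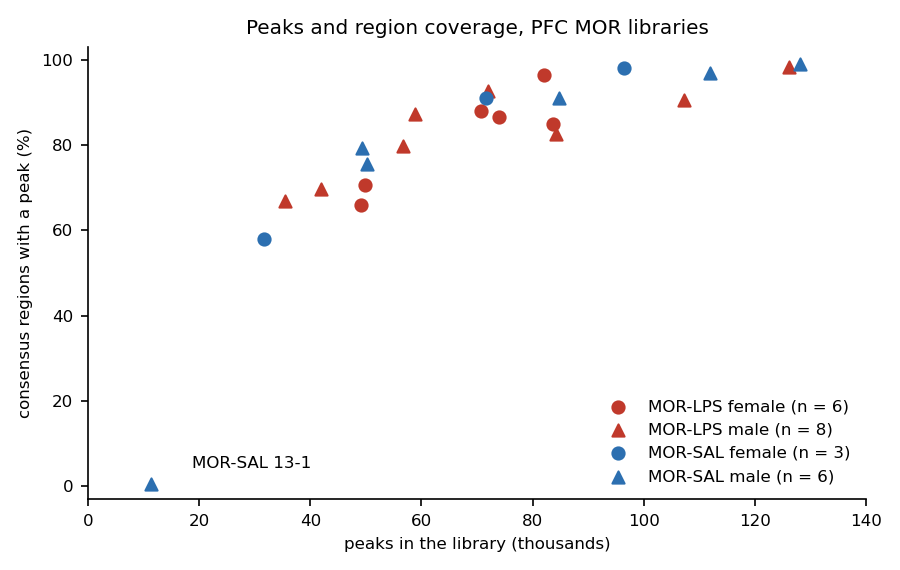
Number of peaks per library (horizontal) against the percent of consensus regions with a peak (vertical) in the 23 PFC libraries of the MOR groups. Each point is a library, with colour for the challenge and shape for sex, and MOR-SAL 13-1 sits apart at 0.438% while the remaining libraries of both groups overlap.

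The first question was whether LPS moved the number of peaks. That number cannot separate the extent of acetylation from the sequencing depth, which is unknown. The mean of the log10 number of peaks was 4.83 ± 0.154 (SD, n = 14) in MOR-LPS and 4.76 ± 0.329 (SD, n = 9) in MOR-SAL, a difference of 0.0617 (two-sided exact permutation test within sex, p = 0.587). Without 13-1 the sign turned, with a difference of −0.0271 (exact permutation p = 0.731). The groups overlapped nearly completely in both cases.

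At single regions, no difference between MOR-LPS and MOR-SAL passed an adjusted p of 0.05 (limma, Benjamini-Hochberg over 18272 regions, 0% called; smallest adjusted p = 0.104), and none did without 13-1 (0%; smallest adjusted p = 0.125). At an unadjusted limma p under 0.05, 815 regions (4.46%) ranked higher and 612 (3.35%) ranked lower in MOR-LPS. Without 13-1 these counts were 970 (5.31%) and 735 (4.02%), and with every list cut to 11306 peaks they were 593 (3.25%) and 557 (3.05%), with 0 calls (0%). The typical region differed by 6.24 rank points in either direction with a standard error of 8.96, so that differences under about 2 standard errors could not be told from the spread between libraries. The regions described next had the smallest p-values and are ordered by what their genes do. Their differences are estimates that missed the threshold unless an alternative is named.

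The Ubxn8 promoter (chr8:33640965-33642919, GRCm38) separated the groups. Ubxn8 encodes a protein of the endoplasmic reticulum membrane that recruits the segregase p97 to the degradation of misfolded proteins. Its rank ran from 79.5 to 98.4 in the 14 MOR-LPS libraries (median 90.8) and from 45.2 to 68.3 in the 8 MOR-SAL libraries other than 13-1 (median 64.6). Every MOR-LPS library lay above every MOR-SAL library, and this was the only 1 of 18272 regions (0.00547%) without overlap in the higher direction, both with and without 13-1. In the lower direction there was none (0%). The difference was 30.8 ± 7.05 rank points (SE, limma adjusted p = 0.130), and 29.3 without 13-1 (limma adjusted p = 0.176). Over 51 alternatives the adjusted p ran from 0.00763 with fold enrichment to 1.00 in males alone. After saline in early life the LPS and saline means were 79.4 (range 24.9 to 94.8) and 72.3 (range 22.2 to 93.7). The medians of those groups went the other way, at 81.1 and 87.7, and the groups overlapped.

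The same promoter was the only call of a coarser measure. When only the 5000 strongest peaks of each library were kept, the Ubxn8 promoter was occupied in 14 of 14 MOR-LPS libraries and 0 of 9 MOR-SAL libraries (exact permutation test within sex, p = 3.96e-06, adjusted p = 0.0230 over 5795 regions). Those 9 include 13-1, which had a peak in only 0.438% of the consensus regions, so its lack of one here says little. This form was not run without 13-1, and whether the call holds without it is unknown. With the 10000 strongest peaks, the main form of that measure, 0 of 9238 regions passed (0%), and at an unadjusted exact p under 0.05 there were 215 higher (2.33%) and 108 lower (1.17%). The balance turned without 13-1, with 164 higher (1.86%) and 254 lower (2.88%) of 8831 and 0 calls (0%), and with the 20000 strongest peaks, which 13-1 does not have, with 192 higher and 333 lower of 11129. The 300 bases that span the annotated start, most of them upstream of it, are shown because the separation was at this promoter. In the sequences printed here capitals mark matches to searched motifs, and the strand is the gene's for promoters and the plus strand for other regions. The Ubxn8 window, chr8:33641918-33642217 on the minus strand, held a GC box, the Sp1-type motif GGGCGG, which 35.6% of 32817 promoter windows of this length hold on either strand.

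Ubxn8: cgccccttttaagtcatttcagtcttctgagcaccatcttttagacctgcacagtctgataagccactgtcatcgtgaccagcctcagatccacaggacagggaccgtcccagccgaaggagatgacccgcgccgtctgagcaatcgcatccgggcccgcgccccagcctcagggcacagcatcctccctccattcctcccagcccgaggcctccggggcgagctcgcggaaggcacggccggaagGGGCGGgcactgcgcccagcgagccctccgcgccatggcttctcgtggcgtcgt

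Other promoters belonged to endosomal, translation and mitochondrial genes. The promoter shared by Cdc123, an assembly factor of the translation initiation factor eIF2, and Nudt5 (chr2, window below) had ranks from 38.4 to 99.3 in MOR-LPS (median 87.7) and from 3.19 to 72.1 in MOR-SAL without 13-1 (median 48.6). In 11 of 14 MOR-LPS libraries it lay above every MOR-SAL library. The difference was 38.6 ± 8.30 (SE, limma adjusted p = 0.104; 38.8 without 13-1), with group mean differences of 66.9 in females and 22.6 in males. Vps35l, a subunit of the retriever complex that recycles membrane proteins from endosomes, had a promoter difference of 21.8 ± 4.79 (limma adjusted p = 0.104), and of 18.5 without 13-1. It ranked near the top in MOR-LPS, from 86.3 to 99.6, and spread from 51.3 to 99.9 in MOR-SAL without 13-1, so the groups overlapped. The promoter differences were 19.1 at Yars2, the mitochondrial tyrosyl-tRNA synthetase (15.9 without 13-1), and 37.2 at Fam213a, a peroxiredoxin-like protein (38.9).

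The Cdc123 window, chr2:5845115-5845414 on the minus strand, is given for comparison with Ubxn8. It held none of the 9 motifs searched, so no letter is in capitals.

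Cdc123: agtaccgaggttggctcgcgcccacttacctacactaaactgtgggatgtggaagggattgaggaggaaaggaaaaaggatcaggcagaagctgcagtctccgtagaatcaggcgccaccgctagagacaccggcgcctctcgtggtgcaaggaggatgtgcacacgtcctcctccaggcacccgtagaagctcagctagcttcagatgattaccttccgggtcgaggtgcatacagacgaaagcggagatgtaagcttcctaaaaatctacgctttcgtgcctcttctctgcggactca

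Egln2, a prolyl hydroxylase that marks hypoxia-inducible factors for decay, had a promoter difference of 28.2 ± 6.61 (limma adjusted p = 0.134; 27.3 without 13-1). Its MOR-LPS ranks ran from 55.5 to 99.8 and 6 of the 14 lay above every MOR-SAL library. The Bcas3 promoter had the largest difference of these regions, 42.9 ± 9.95 (limma adjusted p = 0.130; 46.3 without 13-1). It ranked from 17.4 to 93.2 in MOR-LPS and from 1.00 to 30.5 in MOR-SAL without 13-1, with 11 of 14 MOR-LPS libraries above all of the latter. Outside promoters there were an intron of Nf2, the gene of the growth suppressor merlin (37.3, and 40.3 without 13-1), an intron of Tulp4 (31.2 and 31.7) and a region near Slfn14 (32.0 and 32.4).

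An intronic region of Ak3 and Cdc37l1 (chr19:29019839-29026457) had a peak in 13 of 14 MOR-LPS libraries and in 3 of 8 MOR-SAL libraries other than 13-1. Ak3 is an adenylate kinase of the mitochondrial matrix and Cdc37l1 a co-chaperone of Hsp90. The ranks were 10.2 to 96.5 in MOR-LPS (median 56.2) and 0.443 to 20.96 in MOR-SAL without 13-1 (median 9.65), and the highest MOR-LPS value was that of 14-4. The values 10.2, 0.443 and 20.96 equal the tied ranks without a peak of MOR-LPS 13-0, MOR-SAL 17-2 and MOR-SAL 7-3. The groups overlapped in the 2 lowest MOR-LPS libraries. The difference was 39.4 ± 9.60 (limma adjusted p = 0.186), and 44.5 without 13-1, whose tied rank of 49.8 is the highest of the MOR-SAL group here. In the SAL groups the means ran the other way, 22.9 with LPS and 36.5 with saline. The 300 bases around the median summit, chr19:29024819-29025118, are shown because most MOR-SAL libraries lacked a peak there. The capitals are a CCAAT box on the minus strand (CCAAT is held by 29.6% of 18271 regions in windows of this length).

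Ak3/Cdc37l1 intron: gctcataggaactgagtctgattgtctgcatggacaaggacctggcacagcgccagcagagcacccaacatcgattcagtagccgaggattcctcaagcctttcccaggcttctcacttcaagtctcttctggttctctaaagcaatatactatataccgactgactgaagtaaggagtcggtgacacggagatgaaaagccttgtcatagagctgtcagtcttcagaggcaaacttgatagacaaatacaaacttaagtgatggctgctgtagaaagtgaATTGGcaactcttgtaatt

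Of the 12 regions that ranked higher with the smallest p-values, 8 were promoters. All 12 kept an unadjusted p under 0.05 and the sign without 13-1, and all 12 did at that equal list length. In the SAL groups 8 of the 12 had the same sign.

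**Figure D2:**
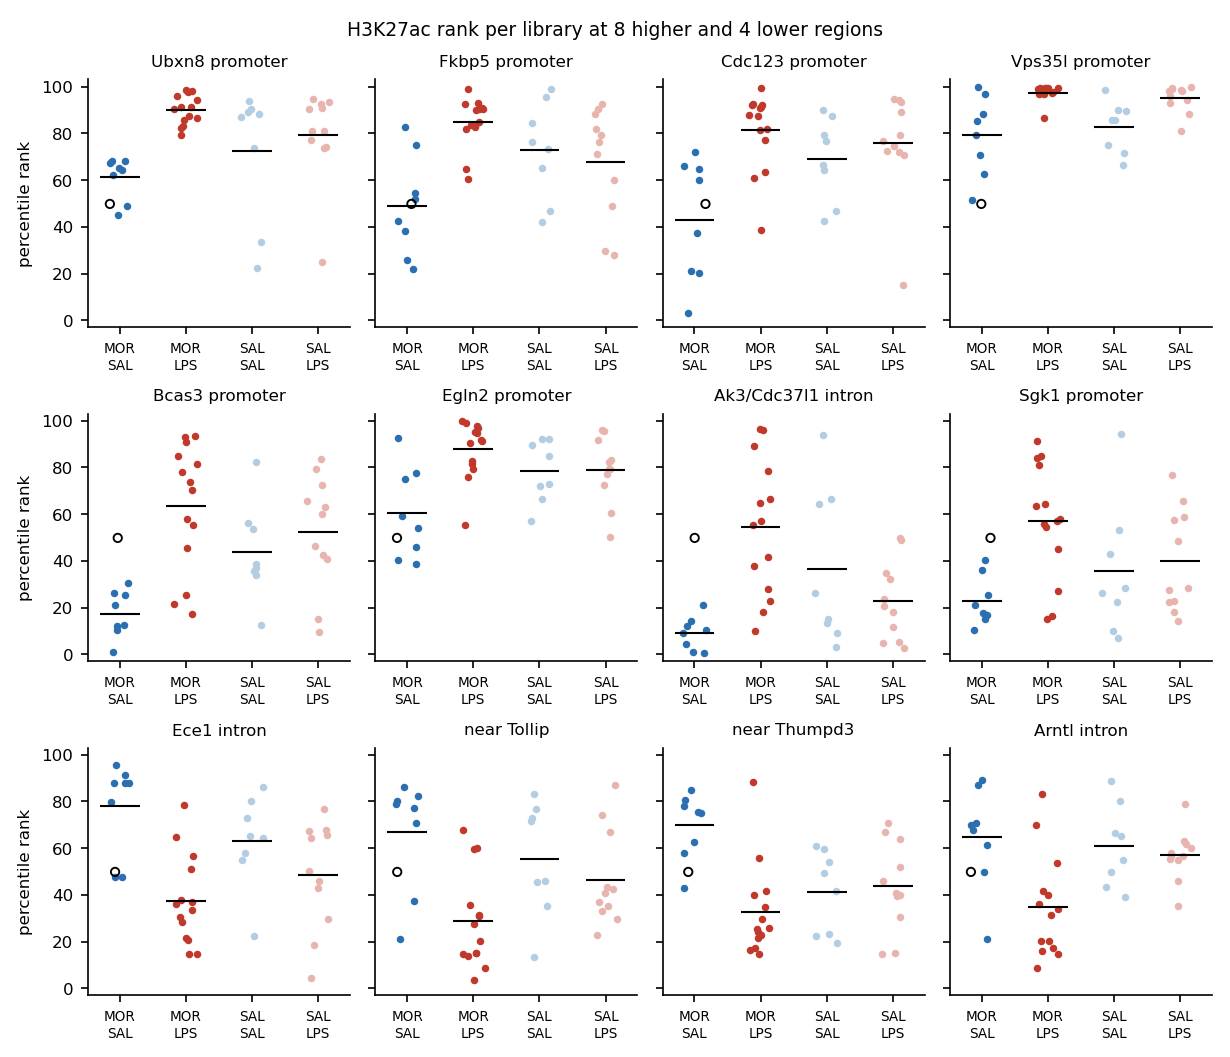
Percentile rank (0 to 100) of 12 regions in each PFC library, by group, with a line at the group mean without MOR-SAL 13-1 and an open circle for 13-1. At the Ubxn8 promoter the lowest MOR-LPS rank is 79.5 and the highest MOR-SAL rank is 68.3, while the other regions overlap.

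Regions that ranked lower were mostly distal. A region in an intron of Ece1, which encodes an endothelin-converting enzyme (chr4:137863596-137866962), ranked from 47.6 to 95.5 in MOR-SAL without 13-1 (median 87.8) and from 14.6 to 78.6 in MOR-LPS (median 34.6). Of these MOR-SAL libraries 6 of 8 lay above every MOR-LPS library. The difference was −37.4 ± 9.52 (limma adjusted p = 0.205) and −40.5 without 13-1 (limma adjusted p = 0.176). The promoter of the predicted gene Gm6133, within Slc14a2, had the smallest p-value of this direction, with −36.3 ± 7.96 (limma adjusted p = 0.104; −36.65 without 13-1).

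The region near Tollip, whose product dampens Toll-like receptor signalling, had a difference of −36.2, with MOR-LPS ranks from 3.71 to 67.9 and MOR-SAL ranks without 13-1 from 20.96 to 86.2. Near Il12a, the gene of the p35 subunit of interleukin 12, the difference was −30.8, at a distance of 50370 bp from the start site. Neither gene was measured for expression, and the nearest start site need not be the target of a distal region. Introns of neuronal genes in this group included those of Cacna2d1, an auxiliary calcium channel subunit (−24.7), and of the synaptic adhesion gene Nlgn1 (−30.7). Regions near Thumpd3 (−34.5), Ralgapa2 (−31.5) and Pdcl3 (−28.9) and 2 intergenic regions were also among the 12, of which 1 was a promoter. All 12 kept an unadjusted p under 0.05 and the sign without 13-1, and 11 did at equal list length.

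The Ece1 window around the median summit, chr4:137865068-137865367, is shown as the counterpart of the Ak3 intron. It held an NF-kB motif and a GC box, both on the minus strand.

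Ece1 intron: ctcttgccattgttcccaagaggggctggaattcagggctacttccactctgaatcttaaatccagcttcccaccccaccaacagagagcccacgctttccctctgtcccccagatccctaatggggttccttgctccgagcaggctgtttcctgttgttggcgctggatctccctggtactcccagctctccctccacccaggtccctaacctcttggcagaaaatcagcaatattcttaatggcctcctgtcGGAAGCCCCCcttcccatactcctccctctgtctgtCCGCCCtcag

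Sorting the regions by where they lie gave the same order over the whole list. Promoters (within 1 kb of a start site, 5387 regions) had a median difference of +2.90, with 371 higher and 81 lower at an unadjusted limma p under 0.05. Intergenic regions (4380) had a median of −2.82, with 106 higher (2.42%) and 237 lower (5.41%). Introns (8084) were between them at −0.72, with 320 (3.96%) and 287 (3.55%), and exons (421) had 18 (4.28%) and 7 (1.66%). The median of all regions was −0.09.

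This split depended on the libraries. Without 13-1 the promoter median was +1.21, with 338 higher and 162 lower, and without both 13-1 and 14-4 it was +0.67, with 234 and 154. The mean rank over promoters ran from 52.1 to 73.0 in MOR-LPS libraries and from 54.0 to 68.7 in MOR-SAL libraries without 13-1, so the groups overlapped. Base composition went with the direction. The windows of the regions that ranked higher had a median GC content of 51.3%, all regions 48.7% and the regions that ranked lower 46.0%. By class the median was 54% for promoters and 47% each for intergenic regions and introns, so GC content and region class are not separated here. The part of GC content in the difference between the groups was not tested.

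**Figure D3:**
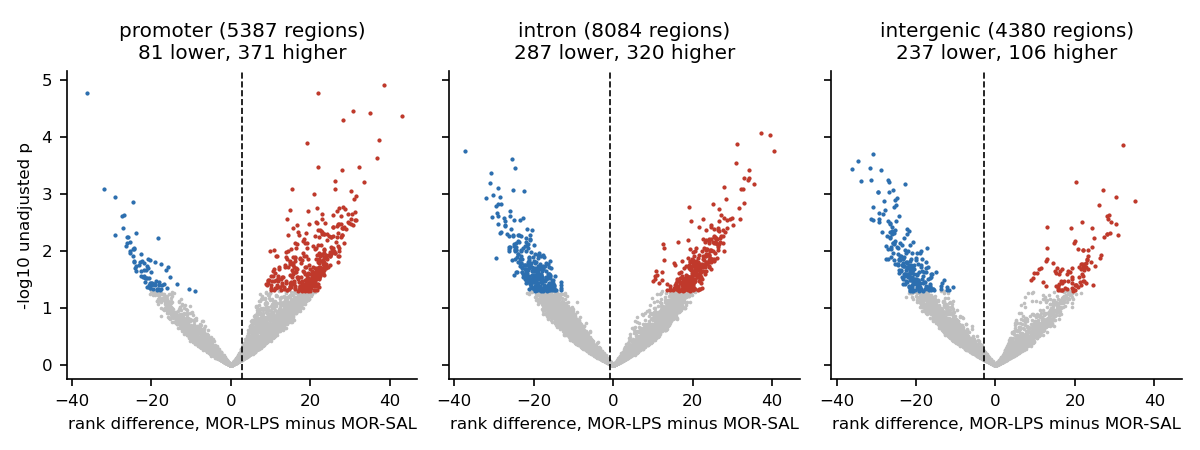
Rank difference between MOR-LPS and MOR-SAL (horizontal, rank points) against −log10 of the unadjusted limma p (vertical) for promoters, introns and intergenic regions, with a dashed line at each class median and colour for p under 0.05. The promoter median is at +2.90 and the intergenic median at −2.82.

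Glucocorticoid-responsive and stress genes had mostly positive differences. Of its 20 genes 13 had a consensus region, 37 in all. Of the 37 regions 28 had a positive difference, and the median was +8.05, against −0.09 over all regions. At an unadjusted limma p under 0.05, 7 ranked higher (18.9%) and 1 lower (2.70%), against 4.46% and 3.35% over all regions. Without 13-1 the counts were 9 and 1 with a median of +7.68, and without 13-1 and 14-4 they were 7 and 1 with +6.99. At equal list length the median was +4.22, with 6 and 0, and in males alone it was +6.18, with 1 and 0. With the share of oligodendrocyte markers as a term the median was +5.86, with 6 and 1. No region of the list passed the adjusted threshold. The mean rank of the list per library ran from 43.7 to 70.7 in MOR-LPS and from 39.7 to 54.8 in MOR-SAL without 13-1, so the libraries overlapped. MOR-LPS 14-4, 7-1, 16-4, 15-1 and 15-3 had the highest values, from 70.7 to 63.3, and the next was 17-3 at 55.0. Strong start-site peaks lay at 70%, 20%, 30%, 30% and 10% of their oligodendrocyte markers, against 0% to 10% in other MOR-LPS libraries. In MOR-SAL without 13-1 these shares were 0% to 20%. There 8-0, at 20%, had a list rank of 42.1, and 7-3, at 10%, had the highest, 54.8. The part of oligodendrocyte signal in the list's difference was not tested beyond the marker-share term above. In the SAL groups the list had 2 higher and 1 lower and a median of −2.85.

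Fkbp5 led this list. It encodes a co-chaperone of Hsp90 that lowers the affinity of the glucocorticoid receptor for its hormone and is itself a target of that receptor. The rank of its promoter (chr17:28516468-28518187) was 60.5 to 99.1 in MOR-LPS (median 87.4) and 21.9 to 82.8 in MOR-SAL without 13-1 (median 47.1). In 10 of 14 MOR-LPS libraries it lay above every MOR-SAL library, and the highest value was that of 14-4. The difference was 34.96 ± 8.05 (limma adjusted p = 0.130) and 35.3 without 13-1 (limma adjusted p = 0.170), and it was positive in each of the 5 identifier prefixes, litters by the study's sample table, that hold MOR-LPS libraries and a MOR-SAL library other than 13-1. With weights that lower the part of variable libraries, the adjusted limma p was 0.0490, and over 51 alternatives it ran from 0.0434 to 1.00, the latter in males alone. After perinatal saline the means were 67.9 with LPS and 72.8 without, and the difference of the LPS differences was 40.6 ± 11.9 (limma adjusted p = 0.544).

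The other effectors of the list spanned kinases, metabolism and growth factor signalling. The promoter of Sgk1, the serum and glucocorticoid regulated kinase (chr10:21991669-21993785), ranked from 15.1 to 91.4 in MOR-LPS (median 57.5) and from 10.4 to 40.1 in MOR-SAL without 13-1 (median 19.3). Of the 14 MOR-LPS libraries 11 lay above all of these MOR-SAL libraries. The difference was 31.1 ± 9.79 (limma adjusted p = 0.399). An adjoining Sgk1 promoter region had 18.5, and a distal region near Sgk1 had −25.7. Near Pdk4, the kinase that shuts off pyruvate dehydrogenase, the ranks were 10.2 to 81.3 and 4.45 to 53.1 and the difference 28.6 ± 9.12. Near Errfi1, an inhibitor of the epidermal growth factor receptor, it was 23.2, at the promoter of the lipid droplet gene Plin4 23.3, and near Ddit4, an inhibitor of mTORC1, 13.1. The receptors themselves had 8.74 at an Nr3c1 promoter and 9.92 at the Nr3c2 promoter, both smaller than their standard errors, and Tsc22d3, another receptor target, had −2.17.

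The window of Sgk1 (chr10:21991973-21992272, plus strand) and the summit window near Pdk4 (chr6:5443424-5443723) are shown because they carry large differences of the list. In Sgk1 the capitals mark the glucocorticoid receptor half-site AGAACA, which begins 13 bases before the start, and near Pdk4 the same half-site on the minus strand. The start window of Fkbp5, which had a larger difference, is not printed. It held 0 half-sites, 2 NF-kB matches at the same bases on both strands, and 1 GC box.

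Sgk1: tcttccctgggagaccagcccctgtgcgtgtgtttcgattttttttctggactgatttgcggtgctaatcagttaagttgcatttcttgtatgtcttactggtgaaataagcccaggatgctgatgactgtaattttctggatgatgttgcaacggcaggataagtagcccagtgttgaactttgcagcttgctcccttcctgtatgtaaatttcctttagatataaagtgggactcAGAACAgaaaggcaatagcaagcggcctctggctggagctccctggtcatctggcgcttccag

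near Pdk4: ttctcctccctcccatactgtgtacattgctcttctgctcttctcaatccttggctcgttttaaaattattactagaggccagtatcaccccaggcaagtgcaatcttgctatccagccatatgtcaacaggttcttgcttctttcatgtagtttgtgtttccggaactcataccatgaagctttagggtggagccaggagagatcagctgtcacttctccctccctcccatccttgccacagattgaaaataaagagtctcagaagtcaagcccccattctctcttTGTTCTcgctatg

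The half-site is common, in 18.97% of 32817 promoter windows and 23.9% of 18271 region windows, and 7 of the 37 windows of the list held it (18.9%). The full element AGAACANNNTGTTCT was in 0 of the 37, and 1 of 18271 windows held it. NF-kB motifs were in 4 of the 37 (10.8%) and in 5.92% of all windows. A match is a string of letters and was not tested as a site.

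Genes of the inflammatory response gave few regions to compare. The NF-kB and acute inflammation list of 31 genes had 10 consensus regions at 9 genes, and the interferon list of 23 genes had 5 at 2 genes. None of the 15 had an unadjusted limma p under 0.05, and 1 interferon region did without 13-1 and 1 at equal list length, both higher. The NF-kB median was +0.23 (+1.02 without 13-1), and the interferon median +3.40 (+2.98 without 13-1, +8.44 at equal list length). Serpina3n, a secreted serpin of the acute phase, had a promoter difference of 10.8 with a 95% interval from −11.0 to 32.5. That of the NF-kB subunit Rela had 7.45 (−8.84 to 23.7), Nfkbiz 5.93 and an intron of Nfkb1 −4.48. An intron of Irf2, an interferon regulatory factor, had 18.0, and an intron of the RNA sensor Ifih1 −3.79. 

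Since 22 of 31 NF-kB and 21 of 23 interferon genes lacked a consensus region, peaks of any strength within 1 kb of a start site were counted too. Over all genes no difference passed (exact permutation test within sex, 0 of 5085 without 13-1, 0%), and at an unadjusted exact p under 0.05 there were 77 higher (1.51%) and 56 lower (1.1%). With 13-1 there were 90 higher (1.53%) and 21 lower (0.357%) of 5880, and 0 (0%) passed. A MOR-LPS library had a peak at 3 to 16 of the 31 NF-kB genes (median 10) and a MOR-SAL library without 13-1 at 5 to 14 (median 10.5). The interferon counts were 2 to 9 (median 7) and 4 to 7 (median 5.5) of 23. The groups overlapped in both lists.

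Among single start sites, Irf9, a subunit of the interferon-activated complex ISGF3, had a peak in 9 of 14 MOR-LPS libraries, in 0 of 8 MOR-SAL libraries without 13-1, in 7 of 11 SAL-LPS and in 2 of 8 SAL-SAL libraries. The exact permutation p was 0.00549 and its adjusted p was 1. Cebpd, an acute-phase transcription factor, had one in 8 of 14, 1 of 8, 2 of 11 and 0 of 8 (exact permutation p = 0.0819). Irf3 had 10 of 14 and 3 of 8, and Nfkbia, the inhibitor of NF-kB, 12 of 14 and 6 of 8. Others had the larger share in MOR-SAL, with 6 of 14 and 6 of 8 at Tnfaip3, which limits NF-kB signalling, 10 of 14 and 8 of 8 at the subunit gene Rel and at Ptgs2, the inducible cyclooxygenase, and 8 of 14 and 6 of 8 at Ifit2. Of the NF-kB genes 13 had the larger share in MOR-LPS and 9 in MOR-SAL, and of the interferon genes 7 and 5. The start sites of Tnf, Lcn2, Mx1 and Cxcl10 had no peak in any of these 22 libraries. A peak list holds only what passed the caller, so an absent peak is a signal below that limit and not a measured zero. Among start sites of oligodendrocyte genes, Mag had 7 of 14 and 0 of 8.

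Immediate early genes, which neurons switch on within minutes of activity, leaned the other way. Their 58 regions at 20 of 30 genes had a median of −3.68. At an unadjusted limma p under 0.05, 1 was higher (1.72%) and 5 were lower (8.62%), against 4.46% and 3.35% over all regions. Without 13-1 the median was −5.27, with 0 higher and 8 lower (13.8% lower, against 4.02% over all regions). None passed the adjusted threshold. The lower regions were near Npas4 (−21.5), the activity-dependent factor of inhibitory synapses, near Arc (−21.5), a regulator of AMPA receptor trafficking, near Nr4a3 (−19.8), near Atf3 (−20.9) and at an Egr3 promoter (−20.3), and an intron of Homer1 had +19.2. Near Npas4 the ranks were 18.4 to 94.7 in MOR-LPS and 70.8 to 99.0 in MOR-SAL without 13-1, with the lowest value in 14-4. The start site of Egr4 had a peak in 5 of 14 MOR-LPS and 8 of 8 MOR-SAL libraries without 13-1 (exact permutation p = 0.00591, adjusted p = 1). The mean rank of the list was 51.3 to 72.2 and 57.0 to 73.6, which overlap.

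Synapse genes had 169 regions at 28 of 30 genes, with a median of −2.65, 0 higher and 9 lower (5.33% lower, against 3.35% over all regions). Without 13-1 the median was −3.17, with 1 and 11. It was −0.89 at equal list length, −0.16 there without 13-1 (4 higher and 10 lower) and +0.22 when a peak had to cover at least 20% of the region. The 9 included regions at Kalrn, Dlgap1, Dlg2, Nrxn3 and Gria1, and ran from −24.9 at Kalrn, a guanine nucleotide exchange factor of dendritic spines, to −16.0 at Dlg2, a scaffold of the postsynaptic density. At equal list length the Dlgap1 region turned to +2.38. Neuron markers had 0 higher and 2 lower of 55 regions (Map2 −24.0, Rbfox3 −16.6), cortical excitatory markers 0 and 1 of 38, and striatal markers 0 and 4 of 83 with a median of −5.51. Without 13-1 these were 0 and 1, 0 and 1, and 0 and 4 with −5.34. The marker shares lower were 3.64%, 2.63% and 4.82%, near the 3.35% over all regions. Without 13-1 they were 1.82%, 2.63% and 4.82%, against 4.02%, so these counts lower did not stand out. Where a single region did rank lower, fewer nuclei of a neuron type and less acetylation per nucleus cannot be told apart in these pools.

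**Figure D4:**
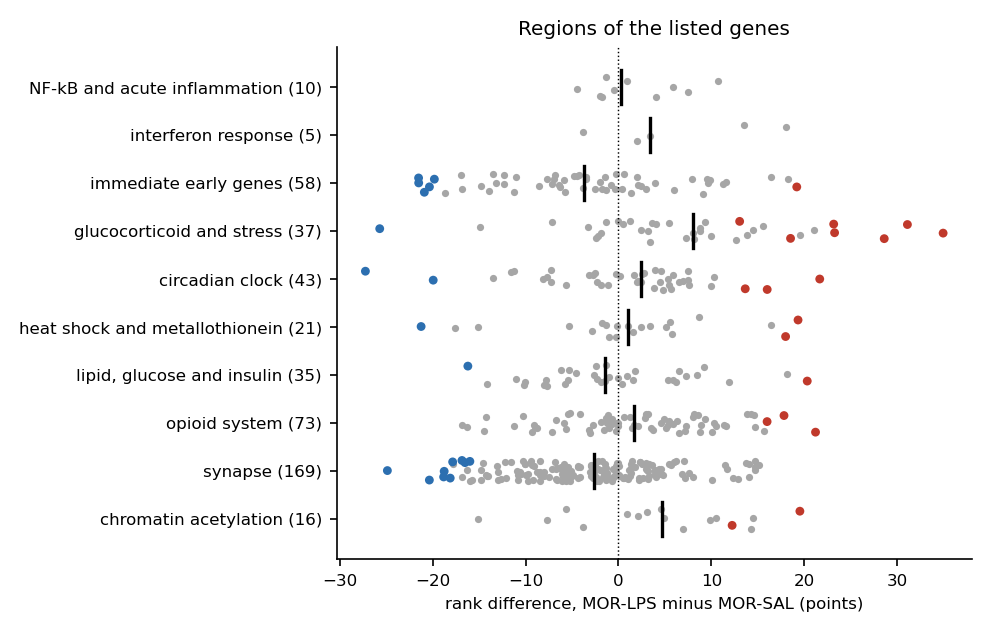
Rank difference between MOR-LPS and MOR-SAL for every consensus region of each gene list, with a black bar at the list median, a dotted line at the median of all regions, and colour for an unadjusted limma p under 0.05. The glucocorticoid list has its median at +8.05 and the immediate early genes at −3.68.

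Between the MOR groups opioid and clock genes showed no common direction. The opioid list had 73 regions with a median of +1.70, 3 higher and 0 lower (4.11% higher, against 4.46% over all regions). There were 2 and 0 with a median of +1.29 without 13-1, and 0 and 0 at equal list length, so the list did not stand out by its counts in this contrast. The 3 were introns of the adenylyl cyclase Adcy5 (21.2) and the G protein gene Gnao1 (16.0) and the promoter of Creb1 (17.8), the factor that responds to cAMP. The promoter of Oprm1, the receptor of morphine, had −1.29 ± 9.17. In the SAL groups the opioid list had a median of −8.06, with 0 higher and 6 lower (8.22% lower, against 3.23% over all regions). With 13-1 included its interaction median was +8.46, with 57 of 73 regions positive, against −0.497 and 8861 of 18272 over all regions. At an unadjusted limma p under 0.05 the interaction was above 0 at 6 (8.22%, against 4.44%) and below at 1, and none passed the adjusted threshold. Between the MOR groups clock genes had 3 higher and 2 lower of 43, with a median of +2.48 that turned to −0.97 without 13-1. These included a region near Nr1d1, the repressor Rev-erb alpha (21.7), 2 Tef promoter regions (16.0 and 13.7), an Arntl intron (−27.2 ± 9.10) and a region near Npas2 (−19.9), which was +2.10 at equal list length. The Tef region of 16.0 had −19.04 when a peak had to cover at least 20% of the region.

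Heat shock genes had 2 higher and 1 lower of 21 regions, near Hsph1 (19.3), at the promoter of the endoplasmic reticulum chaperone Hspa5 (18.0) and near Bag3 (−21.2). Genes of lipid, glucose and insulin metabolism had 1 and 1 of 35, the Insr promoter (20.3) and a region near Foxo1 (−16.2). Enzymes and readers of acetylation had 2 higher and 0 lower of 16, at the promoters of the deacetylase Hdac9 (19.5) and the bromodomain gene Brd2 (12.2), with a median of +4.73 (+2.87 without 13-1, −0.33 in females alone). Without 13-1 the counts were 2 and 1 for heat shock, 2 and 1 for metabolism and 2 and 0 for acetylation. With all libraries the shares higher and lower were 9.52% and 4.76% for heat shock and 2.86% each way for metabolism. For acetylation they were 12.5% and 0%, and over all regions 4.46% and 3.35%. The counts of these lists are small, and each region missed the adjusted threshold.

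The second question was whether the LPS difference depended on perinatal morphine. The interaction of morphine and LPS passed at 0 of 18272 regions (limma, 0% called; smallest adjusted p = 0.544), with 811 above (4.44%) and 480 below (2.63%) 0 at an unadjusted p under 0.05. Without 13-1 it passed at 0 (0%; smallest adjusted p = 0.299), with 966 (5.29%) and 650 (3.56%). After perinatal saline, LPS against saline likewise gave 0 calls (0%), with 604 higher (3.31%) and 591 lower (3.23%). These 2 contrasts use different libraries. Over the 18272 regions their differences had a Pearson correlation of 0.0315, and −0.0159 without 13-1, given as a description since regions share libraries. Ubxn8 had 30.8 after morphine and 7.73 after saline, and the interaction was 23.04 ± 10.4 (limma adjusted p = 0.637; 21.5 without 13-1).

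The interaction estimate was 54.4 (59.6 without 13-1) in the Ak3 and Cdc37l1 intron, where the difference was 39.4 after morphine and −15.0 after saline. At the promoter of Nbas, a factor of Golgi to endoplasmic reticulum transport, it was 63.6 (65.9 without 13-1), with MOR ranks from 3.71 to 91.2 under LPS and from 1.52 to 91.2 without it when 13-1 is left out. The promoters of Paip2, a translational repressor, and Tmbim1, an inhibitor of cell death, had 46.4 and 52.1 (45.7 and 55.6 without 13-1). An intergenic region of chromosome 12 had −56.4 (−58.2).

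**Figure D5:**
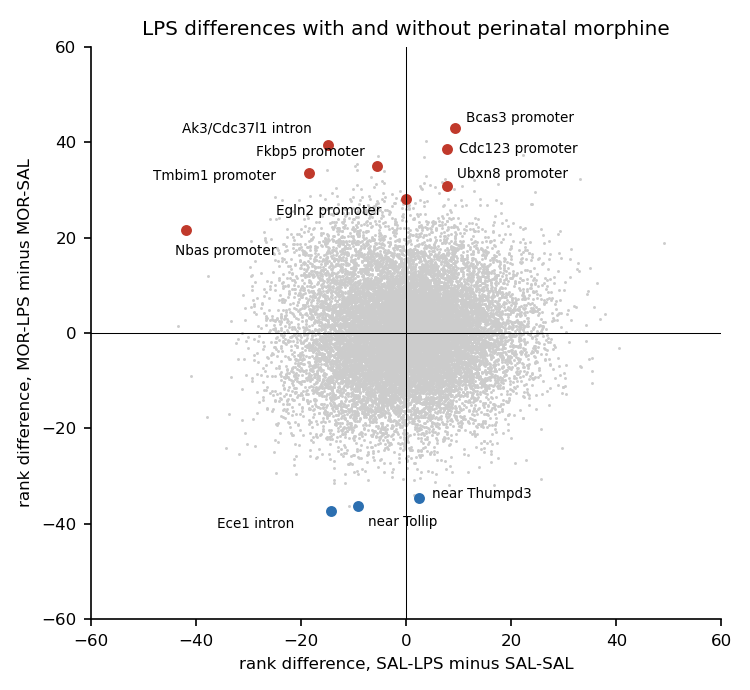
LPS difference in rank points after perinatal saline (horizontal) and after perinatal morphine (vertical) for 18272 regions, with the named regions marked. Over all regions the Pearson correlation is 0.0315, and Ubxn8 lies at 7.73 and 30.8.

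The sexes could be compared only in small groups. The female minus male LPS difference passed at 0 of 18272 regions (limma, 0%; smallest adjusted p = 0.605), with 882 at an unadjusted p under 0.05. Without 13-1 the smallest adjusted p was 0.411, with 948. Both counts are near what that unadjusted cut passes when there is no difference. At Ubxn8 the difference of group means was 28.2 in females and 31.5 in males, and at Fkbp5 30.6 and 37.3. At Cdc123 it was 66.9 and 22.6, and near Pdk4 52.8 and 15.1. The female values rest on 3 MOR-SAL libraries, and no sex difference passed at these regions.

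The names of the peaks hold a run name in some libraries, which may stand for sequencing batches but is not stated as one. Within the 9 MOR-LPS and 5 MOR-SAL libraries without a run name, the mean ranks were 91.6 and 62.4 at Ubxn8, 86.1 and 60.5 at Fkbp5, 76.9 and 33.8 at Cdc123 and 39.8 and 81.3 at the Ece1 intron. The direction of these 4 was that of all libraries. The 4 were picked by their p-values in all libraries, these included, so a shared direction is no separate check.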

How the data were processed

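H3K27ac was profiled by MOWChIP-seq in NeuN-sorted nuclei. Per the labels and the study's methods Trim Galore 0.6.7 was used by the authors for trimming and Bowtie2 2.4.5 for alignment against mm10. Peaks came from MACS2 2.2.7.1, library by library, and consensus regions from DiffBind 3.10.1. The deposited peak lists give a −log10 p-value and q-value, a fold enrichment (ratio), a score and a summit per peak, and no read counts or depth. Of these the −log10 p was used, with the fold and the −log10 q in alternatives.

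Each library's 18272 PFC regions were ranked by their strongest overlapping peak (0 to 100). SAL-SAL 9-2, with under 10000 peaks, was left out. limma 3.58.1 (R 4.3.3; trended empirical Bayes) was fitted over 42 PFC libraries with group and sex, and adjusted by Benjamini-Hochberg. Peak numbers and occupancy were tested by exact permutation within sex, and the fit was tested on simulated data. Regions were annotated with GENCODE M21 (promoter, within 1 kb of a start; nearest gene, within 100 kb), and sequences were read from GRCm38. The regions named are the 12 per direction with the smallest p (at most 1 per gene), the 5 with the smallest interaction p, and for each list the 4 genes of smallest p and promoters of the 4 genes written first. Other list members with an unadjusted p under 0.05, the start-site genes and the Hox genes were named after their values were seen (a few named regions are not reported here), as were the alternatives on peak names, marker shares, MOR-LPS 14-4 and start-site peaks. Members and gene lists were chosen with earlier results of these data known.

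Of the 14 MOR-LPS and 9 MOR-SAL libraries 11 and 8 shared 6 identifier prefixes, which the study's sample table gives as litters, and the prefix was fitted as a replicate block (correlation within a prefix 0.0336). The peaks of MOR-LPS 12-2 are named 12-0, and the label was used.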

Additional observations from a re-analysis of the deposited data

Results flagged for a closer look

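In 9 MOR-SAL libraries the lowest or highest value lay far from the others, by the Dixon ratio, in 8 measures, and each time the library was 13-1. Chance alone marks some groups in this way, and the 8 measures are not independent. The share of consensus regions with a peak was 0.438%, the share of peaks inside consensus regions was 1.07%, and the share of neuron markers with a strong start-site peak was 0%. The marker shares at the other end were 50% for hypothalamic neurons, 85.7% for thalamic neurons, 25% for astrocytes and 33.3% for endothelial cells. Each of these lists also held genes without such a peak, so the shares do not name a tissue. In the Ak3 and Cdc37l1 intron the tied rank of 49.8 in 13-1 was the highest of the MOR-SAL group.

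Outside the consensus regions, 36 of 39 Hox genes had one of the 10000 strongest peaks of MOR-SAL 13-1 at a start site, and 0 had one in the other 22 MOR libraries. Where the material of this library came from was not tested.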

How the results depend on the processing

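The count of regions passing an adjusted p of 0.05 was 0 in the limma fit with all libraries and in 40 of 51 alternatives, and at most 11. It was 6 with fold enrichment in place of −log10 p (Pbld2, Fam213a, Yars2, Cdc123, Vps35l and Ubxn8), 11 with array weights, 9 with array weights without 13-1, 2 without 13-1 with log10 of the number of peaks as a term (Cdc123, Vps35l), and 1 each in females only (Bloc1s1), with the style of the peak names as a term (Cdc123) and in the MOR libraries alone without 13-1 (Ubxn8). Leaving out a library at a time gave 0 to 2. The calls were Egln2 and Vps35l without MOR-SAL 6-1, Vps35l without MOR-SAL 14-1, Gm6133 without MOR-SAL 7-2 and Cdc123 without MOR-LPS 13-2. The cause was not tested. The interaction gave 0 calls in 23 of 23 alternatives. With the identifier prefix as a replicate block there were 0 calls, both by correlation (smallest limma adjusted p = 0.0991) and as a fixed term (0.492), with no call changed. The Ubxn8 call in the MOR libraries alone without 13-1 was lost with the fixed block (0 calls, smallest limma adjusted p = 0.211), a fit that keeps 16 of those 22 libraries. Occupancy by the 5000 strongest peaks gave 1 call with 13-1 included, and that form was not run without it. Requiring a peak to cover 20% of a region turned the split at an unadjusted p under 0.05 from 815 higher and 612 lower to 816 and 1029.

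The difference in log10 peak number turned negative without 13-1 (−0.0271, and −0.0497 at a −log10 q of at least 5), and leaving out a library at a time gave −0.0271 to 0.105. Of the named regions 11 changed sign in 24 fits, none of them past the threshold. With lists of equal length near Npas2 was 2.10 (4.24 without 13-1, 3.37 with the fixed replicate block), Dlgap1 2.38 (4.75 without 13-1), Kalrn 0.337 without 13-1 and Rela −2.58 with the block. Ifih1 was 1.66 with array weights (3.41 without 13-1), 2.69 in females, 9.36 in libraries without a run name, between −6.96 and 2.15 (without MOR-SAL 6-1) when a library was left out, and 2.88 and 0.137 with the cortical and astrocyte marker shares as terms. With 20% cover Tef was −19.04, Nfkb1 3.33 and Cacna2d1 2.72. In females Tef was −5.12 and Adcy5 −1.79, and in males Serpina3n was −5.54 and Nfkb1 1.36. The Hsp90ab1 promoter, 5.09 with all libraries, was up to 6.43 with a library left out, −0.662 in libraries without a run name, −0.151 with the block without 13-1 and −0.0360 without 13-1 and 14-4. The glucocorticoid median was positive and the immediate early gene median negative in all 51 alternatives. Peak lists hold no depth, so a region below the caller's limit has no value beyond its tie.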
